A study of Catharus ustulatus with 19 samples.

Results

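In 287 of the 11727 genes measured in the brains of captive Swainson's thrushes, every female lay below every male and the female mean was lower by at least 0.5 log2. These genes were chosen by that rule: the highest value of the 3 females had to be below the lowest value of the 16 males, and the plain mean of the males had to exceed that of the females by 0.5 log2 or more. The difference between the sexes in these genes is therefore a description of how they were chosen, and no test of it is given. The deposited values are logarithms, read here as log2, so that a difference of 1 log2 is a 2-fold difference.

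The tissue was a block of brain with the hypothalamus, which governs seasonal physiology, and the optic chiasma, where the optic nerves cross. The birds were kept with only day length changing through the year, and were collected in 2011. The groups were 4 non-migratory inland birds, all male; 5 migratory inland birds, all male; 6 non-migratory coastal birds, 4 male and 2 female (replicates 5 and 6); and 4 migratory coastal birds, 3 male and 1 female (replicate 4). Inland and coastal are the ecotypes of the species, which are known to take different migratory routes. Each bird was a separate animal. The ages of the birds and the depth of the libraries are not known here. All 3 females were coastal, so no inland female entered any comparison.

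In birds the sex chromosomes are called Z and W, and males carry a pair of Z chromosomes while females carry a single Z and a W. Mammals silence one X chromosome in females, but no such silencing of a whole Z is known in birds, and many Z-linked genes are known to be transcribed at a lower level in females. Compensation in birds is thought to act gene by gene, so that some Z-linked genes are near equal in the sexes. The genes are given here by identifier only, since none of the identifiers matched the RefSeq annotation used; an annotation that holds these identifiers was not used here. Whether the 287 genes lie on the Z chromosome was not tested, gene dosage itself was not measured, and no role is given for any of them.

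The deficit was of similar size in all 3 females. Relative to the mean of the males, the median over the 287 genes was -0.80 log2 in non-migratory coastal replicate 5 (quartiles -0.98 and -0.64), -0.84 in non-migratory coastal replicate 6 (-1.04 and -0.66) and -0.83 in migratory coastal replicate 4 (-0.98 and -0.67). The same medians over all 11727 genes were 0.01, 0.02 and 0.02 log2. The birds' deposited values are nearly the same once sorted, which favours medians near 0 over all genes. The 16 males lay between -0.04 and 0.04 log2 over the 287 genes, a range of 0.085. That the females lie outside the range of the males follows from the rule. The females were taken at 2.65, 7.55 and 8.57 hours after lights on, the first in August and the others in October.

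**Figure D1:**
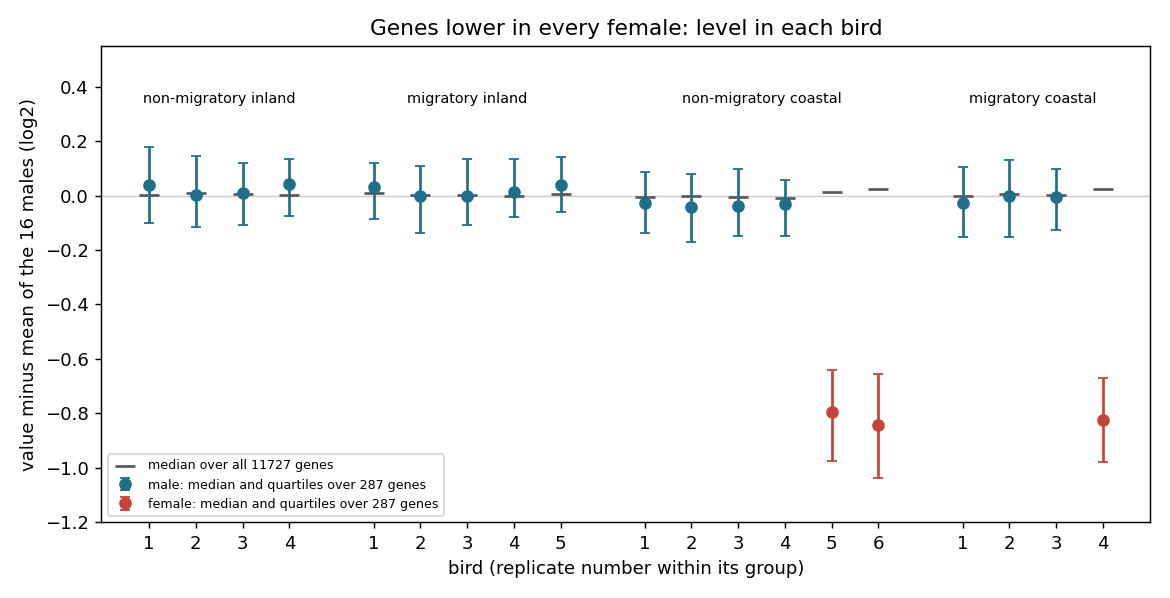
Each point is the median over the 287 genes of a bird's value minus the mean of the 16 males (log2), with bars from the lower to the upper quartile over genes; dashes are the medians over all genes. The 3 females lie between -0.84 and -0.80 and the 16 males between -0.04 and 0.04. The medians over all genes stay near 0 in every bird, which the scaling of the deposited values favours.

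The deficit was of similar size within each group or day that held both sexes. The rule put each of these females below each of these males, so a deficit in every such subset follows from it. Among migratory coastal birds, the median of the difference between 3 males and 1 female was 0.82 log2 (quartiles 0.65 and 0.97). Among non-migratory coastal birds, with 4 males and 2 females, it was 0.81 log2 (0.65 and 0.95). On 8 August, when 4 males and 1 female were collected, it was 0.81 log2, and on 4 October, with 3 males and 2 females, 0.84 log2. The days did not compare like with like. Of these males, 3 on 8 August and 2 on 4 October were inland, while all females were coastal. On 4 October 1 female was non-migratory, while all 3 males were migratory. Set against the mean of all 3 females, the males of each group gave medians of 0.82 (non-migratory coastal), 0.82 (migratory inland), 0.84 (non-migratory inland) and 0.84 log2 (migratory coastal).

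The deficit was also present in females that had no part in choosing the genes. When the rule was applied with non-migratory coastal replicate 5 left out, it chose 320 genes, and that female lay below all 16 males in 282 of them (88.1%), whereas it did so in 8.84% of all genes. Without non-migratory coastal replicate 6 there were 324 genes, and that female was below all males in 290 (89.5%), against 6.87% of all genes. Without migratory coastal replicate 4 there were 315 genes, and it was below all males in 282 (89.5%), against 7.61% of all genes. The held-out female's median deficit in those genes was 0.76, 0.81 and 0.78 log2, and it stood at or above the male mean in 11, 6 and 8 of them. The males were the same in each case, so only the female side was independent of the choice.

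In the 287 genes the male mean exceeded the female mean by a median of 0.82 log2, or 1.77-fold. The quartiles were 0.68 and 0.98 log2, the 5th and 95th percentiles 0.54 and 1.21, and the SD over genes 0.21. In steps of 0.1 log2, the fullest ran from 0.9 to 1.0 with 52 genes. The 4 steps below it held 35 to 48 genes each, and the next above it 24. Over all genes, the step from 0.5 to 0.6 held 102 genes, of which 35 met the rule. That from 0.9 to 1.0 held 66, of which 52 did. The need for every female to lie below every male thus thinned the lower steps more, and the peak depends on it. From 0.8 to 1.2 log2 there were 145 genes (50.5%), with 127 below that range and 15 above. A difference of 1 log2 or more was found in 60 genes (20.9%). The median standard error of a single gene's difference was 0.11 log2, from the spread within each sex, which is smaller than the SD between genes. For 168 genes (58.5%) the difference was within 2 standard errors of 1 log2, in 113 it was further below 1 log2 and in 6 further above. The rule favours genes with little spread within a sex, so these standard errors are shaped by the choice of genes. They also pool males of both ecotypes, while all females were coastal. These counts are a description of the chosen genes and not a test against 1 log2.

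The lower limit of the rule cuts this distribution. The gene nearest to it inside differed by 0.501 log2, and the nearest outside, with all females also below all males, by 0.499. In all, 337 genes (2.87% of those measured) had every female below every male, and 287 (2.45%) met the whole rule. The remaining 50 differed by 0.16 to 0.50 log2, with a median of 0.38. Of the 482 genes with a mean difference of 0.5 log2 or more, the other 195 had at least 1 female at or above a male; their SD among males had a median of 0.54 log2. In the opposite direction, 189 genes were higher in females by 0.5 log2 or more on average, and 19 of them had every female above every male.

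**Figure D2:**
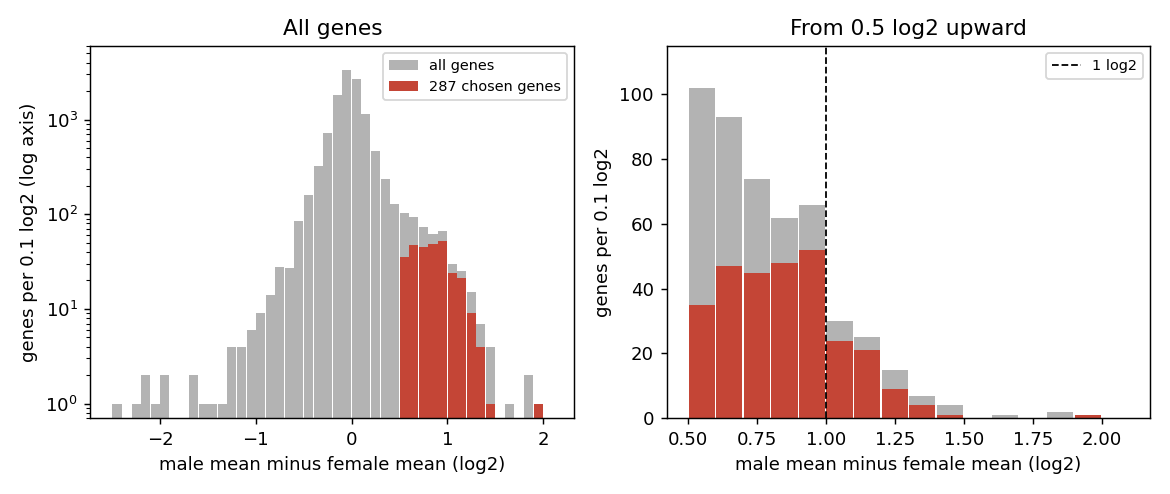
Histogram of the male mean minus the female mean (log2) for all 11727 genes (grey) and for the 287 genes (red), on a log axis on the left and, from 0.5 log2 upward, on a linear axis on the right. The red bars peak at 52 genes between 0.9 and 1.0 log2 and drop to 24 between 1.0 and 1.1. The grey bars hold 102 genes between 0.5 and 0.6 log2 and 66 between 0.9 and 1.0.

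The 2 genes with the widest gap between the lowest male and the highest female were ENSFALG00000010061 and ENSFALG00000010106. In the first, the females stood at 26.97 and 26.87 log2 (non-migratory coastal replicates 5 and 6) and 26.92 log2 (migratory coastal replicate 4), and the males at 27.92 at the lowest, 28.08 at the median and 28.28 at the highest. Its gap was 0.95 log2. The female mean was 26.92 ± 0.05 log2 (SD, n = 3) and the male mean 28.10 ± 0.11 log2 (SD, n = 16), so that males exceeded females by 1.18 log2 or 2.27-fold. Females and males of this gene were separated by several times the spread within either sex.

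In ENSFALG00000010106 the females stood at 26.56, 26.43 and 26.54 log2 in the same order, and the males between 27.51 and 27.99 with a median of 27.74. The difference of the means was 1.21 log2. Its inland males (27.68 to 27.99) lay higher than its coastal males (27.51 to 27.70), and overlapped them only at the edge.

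A further gene, ENSFALG00000014499, was named after its values were seen, because its difference of 1.98 log2 (3.93-fold) was the largest and stood apart from the next, at 1.45. Its females stood at 22.82, 23.05 and 22.71 log2. Its males were spread from 23.82 to 26.22 log2 with a median of 24.68, and their SD within groups, 0.71 log2, was the largest of the 287 genes. It was also among the lowest genes of the set by level, with a male mean of 24.83 log2. The size of its difference is thus known with a standard error of 0.45 log2, against a median of 0.11 for the set.

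The 3 females were also compared gene by gene, as a description. Across the 287 genes, which are not independent of each other, were chosen on the values of these females and share the male mean as reference, the deficits of the October females correlated at a Spearman rho of 0.65, and those of the August female with each of them at 0.47 and 0.49. The median absolute difference between 2 females was 0.12 to 0.17 log2 over these genes and 0.14 to 0.19 over all genes. For the 120 pairs of males it was, over the 287 genes, 0.10 to 0.25, with a median of 0.17.

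Within the chosen genes, the deficit bore little relation to expression level. Across the 287 genes the difference between the sexes had a Spearman rho of 0.00 and a Pearson r of -0.05 with the male mean, of -0.13 and -0.19 with the female mean, and of -0.06 and -0.12 with their midpoint. The difference is computed from both means, which by itself tilts the first pair of values upward and the second downward. With all genes cut into 10 bins of equal size by male mean, the median difference of the chosen genes was 0.90 log2 in bin 1 (the lowest), 0.83 in bin 5, 0.73 in bin 8 and 0.92 in bin 10. These medians kept no order from low to high. The difference rose weakly with the SD among males within groups (Spearman rho 0.16, Pearson r 0.32). A gene that varies widely needs a larger difference to meet the rule, and low genes varied most. The values for level therefore describe the chosen genes and do not decide how difference and level relate without that choice.

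The share of genes that met the rule did change with level. The chosen genes were 1.71% of bin 1, 3.41% of bin 5, and 1.71% of each of bins 9 and 10. Of the genes with a mean difference of at least 0.5 log2, 20 of 99 (20.2%) in bin 1 met the rule, against 20 of 22 (90.9%) in bin 9 and 20 of 25 (80.0%) in bin 10. The spread among males over all genes was widest at low level, with a median SD within groups of 0.37 log2 in bin 1 and 0.12 in bins 9 and 10. The levels of the chosen genes centred near those of the table at large and were spread less widely. Their male means had a median of 27.96 log2 (quartiles 27.02 and 28.87), against 28.04 (26.85 and 29.18) over all genes.

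**Figure D3:**
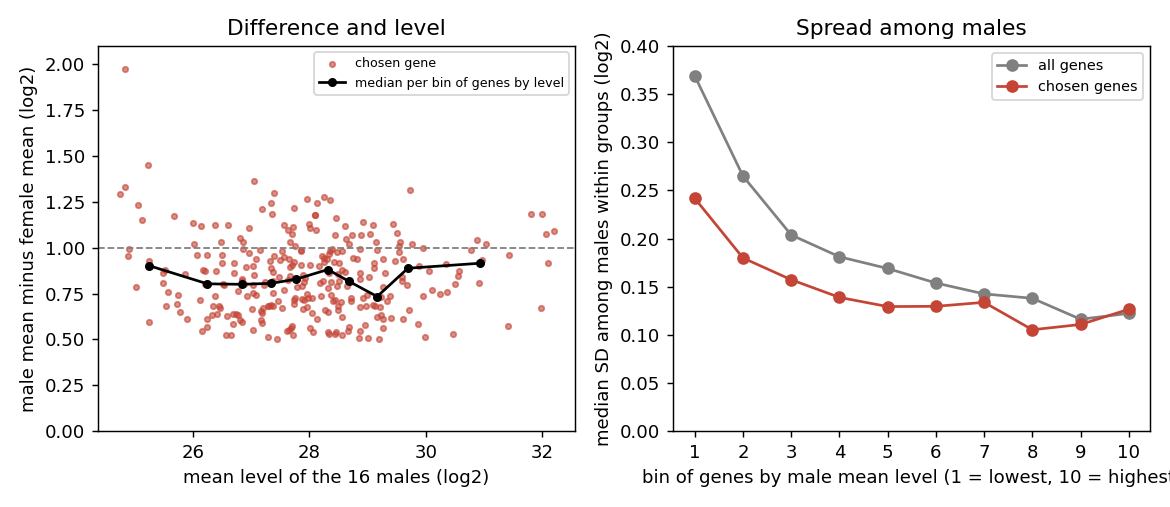
Left: male mean minus female mean (log2) of each of the 287 genes against the mean level of the 16 males (log2), with the median per bin of genes by level; the medians stay between 0.73 and 0.92. Right: median SD among males within groups (log2) by bin, which falls from 0.37 to 0.12 over all genes (grey) and from 0.24 to 0.13 in the chosen genes (red).

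Among males of the same group the 287 genes were somewhat steadier than genes in general. The rule favours this, since a gene that varies widely among males is less likely to keep all of them above all females. The SD within the 4 groups had a median of 0.14 log2 (quartiles 0.10 and 0.18), against 0.17 (0.12 and 0.26) over all genes. In bin 1 by level the medians were 0.24 and 0.37 log2, and in bin 10 they were 0.13 and 0.12. By group, the median SD of the chosen genes was 0.10 log2 in migratory coastal males, 0.12 in migratory inland males, 0.12 in non-migratory coastal males and 0.14 in non-migratory inland males, and that of all genes was 0.14, 0.15, 0.15 and 0.17. By this SD within groups, 51 of the 287 genes (17.8%) were among the steadiest 10% of all genes and 5 (1.74%) among the most variable 10%. Across all 16 males together the SD was closer to that of all genes, with a median of 0.17 log2 against 0.19. The share of the variance among males that lay between the 4 groups had a median of 40.9%, against 26.8% over all genes. The full range of the 16 males was smaller than the difference between the sexes in 209 genes and larger in 78.

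The males differed by ecotype in many of these genes. The rule used no contrast between groups of males, but it used the same male values, in their mean and their lowest. The calls are therefore not independent of the choice of genes. A gene can pass the limit of 0.5 log2 through the ecotype in which it is higher, and some of the genes called below did so. The share called is thus in part shaped by the rule and is not a trait of the set alone. With coastal males alone the difference from the females was under 0.5 log2 in 28 of the 287 genes, and with inland males alone in 9. The ecotypes were compared with limma in the 16 males over all 11727 genes. Between inland and coastal males, averaged over status, 63 of the 287 genes passed an adjusted p of 0.05 (22%), against 6.17% of all genes. Of the 63, 37 were higher in inland males, where 2.82% of all genes were, and 26 were lower, where 3.34% of all genes were. Their differences had a median size of 0.34 log2 (1.27-fold), against 0.40 among all 723 genes called, and 14 exceeded 0.5 log2. In 32 of the 287 genes (11.1%) every inland male lay on one side of every coastal male, 21 above and 11 below, against 1.36% of all genes. All 63 had the same sign in non-migratory and in migratory males. The calls were made on the average over these statuses in the same males, which itself favours a shared sign. Without migratory coastal replicate 2 the count over all genes was 414 (3.53%) and that of the 287 genes 46 (16%); with the day of collection in the model they were 634 (5.41%) and 49 (17.1%).

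The 2 called genes with the smallest p-values in each direction are described next. They are extremes and not typical, since each differed by more than the median size of the 63 called genes, 0.34 log2. ENSFALG00000009884 was higher in inland males. The non-migratory inland males stood at 28.65, 28.52, 28.48 and 28.62 log2 and the migratory inland males at 28.64, 28.58, 28.56, 28.61 and 28.64. The non-migratory coastal males stood at 28.06, 28.04, 28.01 and 27.99 and the migratory coastal males at 27.93, 28.08 and 27.94 log2. The 9 inland males thus lay above the 7 coastal males without overlap, and the coastal males lay just above the females, at 27.76 to 27.87 log2. The ecotypes differed by 0.58 ± 0.04 log2 (SE, 95% interval 0.49 to 0.67, limma adjusted p = 1.1e-06). The mean of its coastal males exceeded that of the females by 0.20 log2, and that of its inland males by 0.78. The gene thus passed the limit of 0.5 log2 only with the inland males included.

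ENSFALG00000012486 was also higher in inland males. Its 9 inland males ranged from 29.93 to 30.25 log2 with a median of 30.14, its 7 coastal males from 28.70 to 29.46 with a median of 29.29, and its females from 28.22 to 28.56. The ecotypes differed by 0.89 ± 0.08 log2 (SE, limma adjusted p = 5.4e-06), and migratory coastal replicate 2, at 28.70, was the coastal male nearest to the females.

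ENSFALG00000010643 and ENSFALG00000004790 went the other way. In ENSFALG00000010643 the inland males ranged from 26.95 to 27.21 log2 and the coastal males from 27.63 to 27.79, so that the inland males lay between the females (26.60 to 26.74) and the coastal males. The difference was -0.58 ± 0.06 log2 (SE, limma adjusted p = 1.2e-05). ENSFALG00000004790 differed by -0.50 ± 0.05 log2 (SE), its inland males ranging from 28.91 to 29.20 log2, its coastal males from 29.44 to 29.73 and its females from 28.59 to 28.65. That the inland males of these genes lay nearer to the females than the coastal males did follows from the rule, which puts every female below every male. Against inland males alone, the difference from the females was 0.42 log2 in ENSFALG00000010643 and 0.49 in ENSFALG00000004790. Both thus passed the limit of 0.5 log2 only with the coastal males included. The calls of these 4 genes held in each alternative fit run for this contrast, with limma adjusted p-values no higher than 0.0005.

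**Figure D4:**
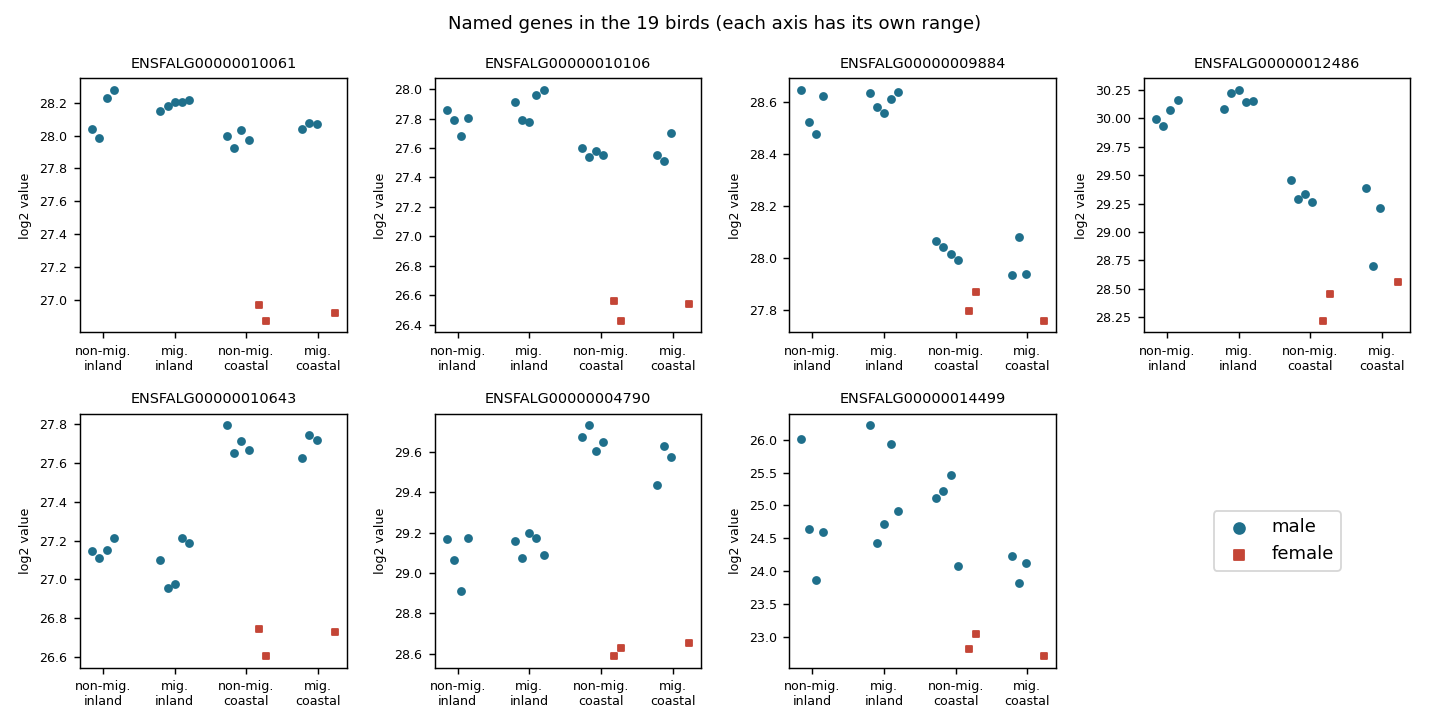
Value (log2) of the 7 named genes in each of the 19 birds, by group; circles are males and squares are females, and each panel has its own axis. Females lie below all males in every panel; in ENSFALG00000009884 and ENSFALG00000012486 the inland males lie above the coastal males, and in ENSFALG00000010643 and ENSFALG00000004790 below them.

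Because the females were all coastal, the ecotype difference of a gene sets how its deficit reads. In the 37 genes higher in inland males, the median difference from the females was 0.72 log2 for coastal males and 1.19 for inland males. In the 26 genes lower in inland males it was 0.94 log2 for coastal and 0.58 for inland males. In the 224 genes that were not called it was 0.82 log2 for both, and their difference between the sexes had an SD of 0.20 log2. The called genes were sorted by this same ecotype difference. Which ecotype stood farther from the females in each set follows from that sorting. Against coastal males alone, the deficit of the 287 genes had a median of 0.82 log2 (quartiles 0.67 and 0.96), and was under 0.5 log2 in 28 of them.

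**Figure D5:**
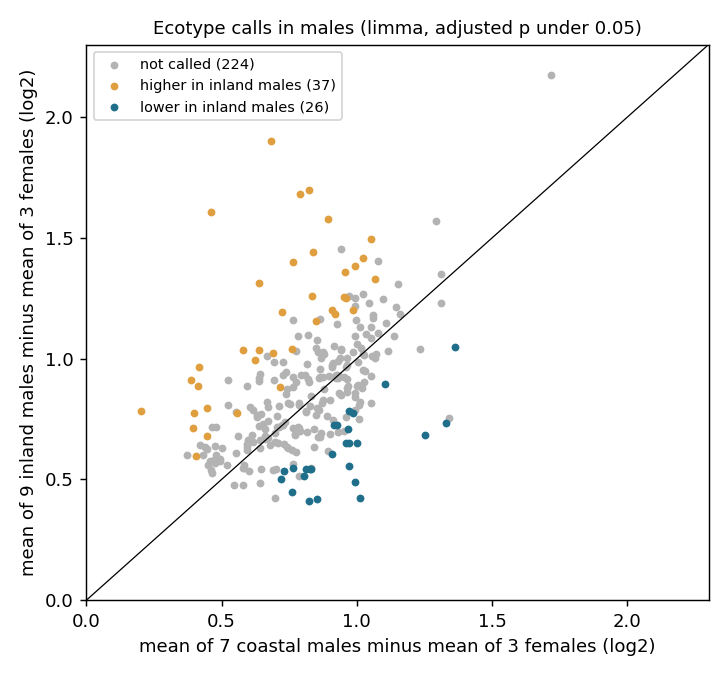
Mean of the 9 inland males minus the mean of the 3 females against the mean of the 7 coastal males minus that of the females (log2), 1 point per gene, with the line of equality. The 224 genes not called for ecotype lie along the line, the 37 higher in inland males above it and the 26 lower in inland males below it. The side of the line on which called genes lie follows from their sorting by ecotype difference.

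The share called was then set against the steadiness of the genes. When all genes were cut into 5 bins of equal size by their SD among males within groups, 31.2% of the chosen genes in the steadiest bin were called for ecotype, against 6.91% of all genes there. In the next 2 bins the shares were 21.2% against 6.23% and 19.5% against 5.63%. In bin 4 the share was close to that of all genes (3 of 39 chosen genes, 7.69%, against 6.14%), and in bin 5, the most variable, it was 2 of 12 (16.7%, against 5.92%). By level, 4 of 47 chosen genes were called in the lowest of 5 bins (8.51%, against 5.29% of all genes there), and 22.4% to 29.7% in the other 4, against 5.88% to 6.99% of all genes.

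As a set, the genes lay slightly higher in inland than in coastal males. Over the 287 genes the medians of the 9 inland males lay from -0.00 to 0.04 log2 relative to the male mean and those of the 7 coastal males from -0.04 to -0.00. The inland mean exceeded the coastal mean in 172 genes (59.9%), against 50.3% of all genes, and the median difference was 0.05 log2. This lean moved with the rule. When females were compared with the 7 coastal males only, 323 genes met it, and the inland mean exceeded the coastal mean in 45.2% of them. Of these 323 genes, 82 (25.4%) were called for ecotype, 27 higher and 55 lower in inland males. The lean thus ran in opposite directions under these rules, while the share of genes called for ecotype was 22% under one and 25.4% under the other. Both rules used values of males that were then compared.

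No gene of the set was called for migratory status among males. All 8 non-migratory males were collected in August and all but 1 of the 8 migratory males (migratory inland replicate 1) in October, so status and month can hardly be told apart. Averaged over ecotypes, limma called none of the 287 genes and none of all genes (0.0%), and at an unadjusted p under 0.05 there were 17 of the 287 (5.92%) against 9.13% of all genes. The 95% interval of the status difference lay within ± 0.5 log2 for 275 of the 287 genes. The same count over all genes was not made. The rule favours steady genes and so narrow intervals: the median standard error was 0.073 log2 in the set and 0.086 over all genes. The smallest p-value belonged to ENSFALG00000002015, at 0.20 ± 0.06 log2 in migratory relative to non-migratory males (SE, limma adjusted p = 0.34, from 0.27 to 0.99 over the alternatives).

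Within each ecotype the count for status was also 0, with 14 genes of the set at an unadjusted p under 0.05 in inland males (4.88%, against 6.44% of all genes) and 25 in coastal males (8.71%, against 13.3%). Nearest to a call came ENSFALG00000014553 in inland males (-0.37 ± 0.10 log2, SE, limma adjusted p = 0.62) and ENSFALG00000010416 in coastal males (-0.20 ± 0.05 log2, SE, limma adjusted p = 0.13). The status difference did not pass the test of a difference between ecotypes in any gene of the set (limma, smallest adjusted p = 0.19, that of ENSFALG00000014553); 33 genes had an unadjusted p under 0.05 (11.5%), against 12% of all genes.

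The hour of collection and the status of the females were tested as well. Among males, limma called none of the 287 genes for a slope on the hour of collection (2.5 to 7.65 hours after lights on), against 0.0256% of all genes, and 22 had an unadjusted p under 0.05 (7.67%, against 11.3%); ENSFALG00000009835 came nearest, at -0.07 ± 0.02 log2 per hour (SE, limma adjusted p = 0.13). Whether the deficit of females differed between migratory and non-migratory coastal birds was tested in the 10 coastal birds, where the 1 migratory female was assumed to vary like the other birds. No gene was called (limma, 0.0% of all genes), and 9 of the 287 had an unadjusted p under 0.05 (3.14%, against 5.42%). The smallest p-value was that of ENSFALG00000009095 (-0.77 ± 0.20 log2, SE, limma adjusted p = 0.89). This comparison was imprecise: its 95% interval lay within ± 0.5 log2 for only 80 of the 287 genes. The rule also used these same birds and kept only genes in which every female lay below every male. Such a choice disfavours deficits that differ by status, so the counts among the 287 genes do not decide whether they differ.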

How the data were processed

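The authors deposited 1 table of log values, read as log2, for 11727 genes in 19 birds; per the name of the deposited table they come from exon counts of protein-coding genes under TMM (trimmed mean of M values) normalization. No source states the base of the logarithm. The columns hold nearly the same sorted values (medians 28.05), so a gene is high or low only relative to the other genes of its bird, depth is unknown, and no counting error can be given. TopHat2, HTSeq and Trim Galore 0.3.1 are listed, with no role given, per the submitters' processing notes; the genome build is not given in the sources used here. None of the identifiers matched the 19631 RefSeq genes supplied, so lists of named genes were not used.

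Groups come from the labels. Contrasts among the 16 males were fitted with limma 3.58.1 in R 4.3.3 (a mean per group, trend and robust settings, no filter or pseudocount), with two-sided p-values adjusted by Benjamini-Hochberg over all 11727 genes; all 287 genes were tested. The fit was tried on simulated data with a known ecotype difference in randomly chosen genes. The simulation did not apply the rule that chose the 287 genes, so it does not bear on the calls among them. The genes and the rules were chosen with earlier results of these data known. Identifiers named are the 2 with the widest gap between the sexes, the 2 called in each direction with the smallest p-values per contrast (1 where none was called), and 1 chosen after its values were seen. Alternatives covered the rule, scaling, a pseudocount, a filter on low values, model terms and leaving out each bird.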

Additional observations from a re-analysis of the deposited data

Results flagged for a closer look

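In ENSFALG00000002015, non-migratory inland replicate 1 stood at 28.70 log2, below the other 3 males of its group (28.91 to 28.94), a gap wide enough to pass Dixon's test. It was the only such value in 39 tests of a group of males on a named gene or on the median of the set; about 1 in 20 is passed by chance, or 1.95 here.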

How the results depend on the processing

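The number of genes meeting the rule was 287 to 324 without each bird in turn (the highest without non-migratory coastal replicate 6), and 205 to 337 under the other planned forms of the rule, scaling, pseudocount or filter. Judged by a single female, a choice made after seeing the data, it was 492 with non-migratory coastal replicate 5, 439 with replicate 6 and 497 with migratory coastal replicate 4. Every bird left out makes it easier for all females to lie below all males, so these counts and those without each bird lean upward. The count of these genes called for ecotype was 46 to 69 without each male and 49 to 67 in the other planned fits; with the 323 genes chosen on coastal males alone, a form added after seeing the data for this contrast, it was 82. For status in inland males it was 0 to 1 without each male, the 1 arising without non-migratory inland replicate 1. In every alternative run for status, its interaction with ecotype, the hour and sex by status it was otherwise 0, and no named gene changed sign in any alternative. Over all genes, the count for status in inland males reached 11 and that for its interaction with ecotype 7 without non-migratory inland replicate 1, that for status in coastal males rose from 0 to 13 with birds weighted by their fit, and that for the hour ranged from 0 to 11. No paired analysis was possible because the labels number no replicates; the replicate numbers used here follow the order of deposit and only name birds. The sex by status comparison was not run without its only migratory female. Values carry no depth, so the precision of low genes could not be set against their reads.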

Other observations

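The identifiers of the 287 genes were not spread evenly through the table, which is sorted by identifier. For 18 of the 287 (6.27%) the next identifier in the table also belonged to the set, where the set makes up 2.45% of the table. In successive windows of 100 identifiers, 54 of 118 windows held none of the set, the median window held 1 and the fullest held 19. What the order of identifiers stands for is not given in the sources used here, and no position was derived from it.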
